A study of Rattus norvegicus with 4 samples.

Results

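Thyrotrophs are the anterior pituitary cells that make thyroid-stimulating hormone (TSH), and 81 of the 7861 cells in the count table (1.03%, exact Clopper-Pearson 95% interval 0.819 to 1.28%) met the rule used for them here. A cell was taken as a thyrotroph when *Cga* held at least 1% of its unique molecular identifiers (UMIs, counted mRNA molecules), *Lhb* under 0.3%, *Gh1* under 5%, *Prl* under 2% and *Pomc* under 2%, and when *Tshb* held at least 0.3% or at least 1 *Trhr* UMI was found. These 7 genes chose the cells, so their values below are descriptions, without a test, and they are left out of every count of genes called. The cells came from Sprague Dawley rats, which carried no transgene or treatment. The anterior pituitaries of 4 females in diestrus, 44 days old, made 1 pool, and those of 4 males, 59 days old, made the other. Each pool was dispersed with trypsin and EDTA and loaded on 2 lanes of the 10X Chromium system (3′ chemistry, version 2), so lanes are technical replicates, nothing here measures the spread between animals, and sex cannot be told apart from pool and age.

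TSH is a glycoprotein hormone built from the alpha subunit, which thyrotrophs share with gonadotrophs, and a beta subunit of its own. Thyrotropin-releasing hormone (TRH) from the hypothalamus drives its release through a Gq-coupled receptor, and thyroid hormone represses it, after type 2 deiodinase in the pituitary has turned thyroxine into the active triiodothyronine that the nuclear thyroid hormone receptors bind. Thyrotrophs belong to the lineage that needs the transcription factor POU1F1, as do somatotrophs and lactotrophs, and GATA2 acts together with it on the beta subunit gene.

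The promoters of the TSH subunit genes and of the marker genes *Nmu* and *Dio2* are shown because the levels of these 4 transcripts define or mark the cells described here. Each line gives the 250 bases before the annotated start, from the RefSeq annotation of the rat build GRCr8, read 5′ to 3′ on the strand of the gene, which is the reverse strand for *Tshb* and *Dio2*. Positions are chr2:192918055-192918304 for *Tshb*, chr5:54283090-54283339 for *Cga*, chr14:32198693-32198942 for *Nmu* and chr6:115410595-115410844 for *Dio2*. Capitals mark matches, on either strand, to GATAA, a core that GATA factors bind, or to TATNCAT, a short form of the POU1F1 site; these motifs do not overlap in the promoters shown.
Tshb: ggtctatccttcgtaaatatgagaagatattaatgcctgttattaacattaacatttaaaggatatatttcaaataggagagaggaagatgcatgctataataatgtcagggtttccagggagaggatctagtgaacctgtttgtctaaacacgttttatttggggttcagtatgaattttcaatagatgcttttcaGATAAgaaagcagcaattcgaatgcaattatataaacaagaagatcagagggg
Cga: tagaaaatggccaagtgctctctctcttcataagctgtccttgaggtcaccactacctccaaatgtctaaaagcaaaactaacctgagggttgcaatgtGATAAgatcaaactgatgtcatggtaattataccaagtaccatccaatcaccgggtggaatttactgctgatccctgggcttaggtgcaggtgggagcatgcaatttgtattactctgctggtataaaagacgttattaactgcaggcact
Nmu: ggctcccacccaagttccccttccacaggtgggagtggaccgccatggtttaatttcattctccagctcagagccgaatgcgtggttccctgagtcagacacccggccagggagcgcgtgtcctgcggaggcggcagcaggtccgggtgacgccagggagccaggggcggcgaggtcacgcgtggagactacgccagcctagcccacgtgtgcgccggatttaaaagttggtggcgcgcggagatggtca
Dio2: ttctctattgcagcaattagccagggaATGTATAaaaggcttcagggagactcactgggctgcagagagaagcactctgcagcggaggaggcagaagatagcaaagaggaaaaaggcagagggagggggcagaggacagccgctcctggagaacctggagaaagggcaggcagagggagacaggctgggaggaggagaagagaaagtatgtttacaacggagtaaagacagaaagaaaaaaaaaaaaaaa
The *Tshb* promoter held GATAA from base -53 to -49 and the *Cga* promoter from -151 to -147, counted back from the start. *Dio2* held TATNCAT on the other strand from -223 to -217, and the *Nmu* window held neither. Among 33469 promoters of the same length, 23.5% held GATAA, 8.73% held TATNCAT and 3.08% held both, so such matches are common and describe the sequence only.

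The lanes, numbered by the suffix of their cell barcodes, held 1868 and 1861 cells in the female pool (lanes 1 and 2) and 2047 and 2085 in the male pool (lanes 3 and 4), with median depths between 7971 and 9413 UMIs per cell. Thyrotrophs made up 12 of the cells of lane 1 (0.642%), 15 of lane 2 (0.806%), 31 of lane 3 (1.51%) and 23 of lane 4 (1.10%). Both male lanes were above both female lanes, with 27 of 3729 female cells (0.724%, 95% interval 0.478 to 1.05%) against 54 of 4132 male cells (1.31%, 0.983 to 1.70%). The intervals cover counting error only, and with 1 pool a sex no test of this difference was possible. In all, 60 cells carried a barcode that occurs in more than 1 lane, and 0 of them were thyrotrophs. Scrublet called between 15 and 30 doublets in a lane, and 2 of those called, both in lane 1, were thyrotrophs.

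The cells stood apart in genes that the rule did not use. With the 7 genes of the rule left out, the 30 nearest neighbours of a thyrotroph among all cells included a median of 26 other thyrotrophs (range 0 to 30), although thyrotrophs were 1.03% of all cells. At least 15 of the 30 neighbours were thyrotrophs in 70 of the 81 cells, and thyrotrophs were the most frequent type of neighbour in 75. Of the other 6 cells, 3 lay mostly among somatotrophs and 1 each among gonadotrophs, folliculostellate-marker cells and leukocyte-marker cells, and 4 cells had no thyrotroph neighbour. The neighbours of gonadotrophs, the other *Cga* cells, included a median of 0 thyrotrophs. Of the other markers given for the type, *Dio2* was found in 57 and *Nmu* in 68 of the 81 cells, as detailed below.

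The alpha and beta subunit transcripts filled a large part of the RNA of these cells. *Cga*, the alpha subunit gene, held between 1.23% and 22.2% of the UMIs of a thyrotroph, with a median of 9.57%, and its level over lanes 1 to 4 was 981, 956, 1104 and 913 UMIs per 10000. *Tshb*, the beta subunit gene, held between 0 and 19.4% (median 4.97%), with levels of 296, 315, 874 and 826 per 10000. *Cga* was thus close to even over the lanes, while *Tshb* was higher in each male lane than in either female lane, as the plot of the hormone subunits in each thyrotroph shows cell by cell. The median *Tshb* share was 0.914% in lane 1 and 2.42% in lane 2, against 7.68% in lane 3 and 7.08% in lane 4. Over the 81 cells the *Tshb* and *Cga* shares had a Spearman rho of 0.426, with 0.266 in the 27 female and 0.530 in the 54 male cells; the cells share lanes, and both values are shares of the same total. *Tshb* moved with depth in the male cells (rho 0.698 with the UMIs per cell) but little in the female cells (0.0891).

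**Figure D1:**
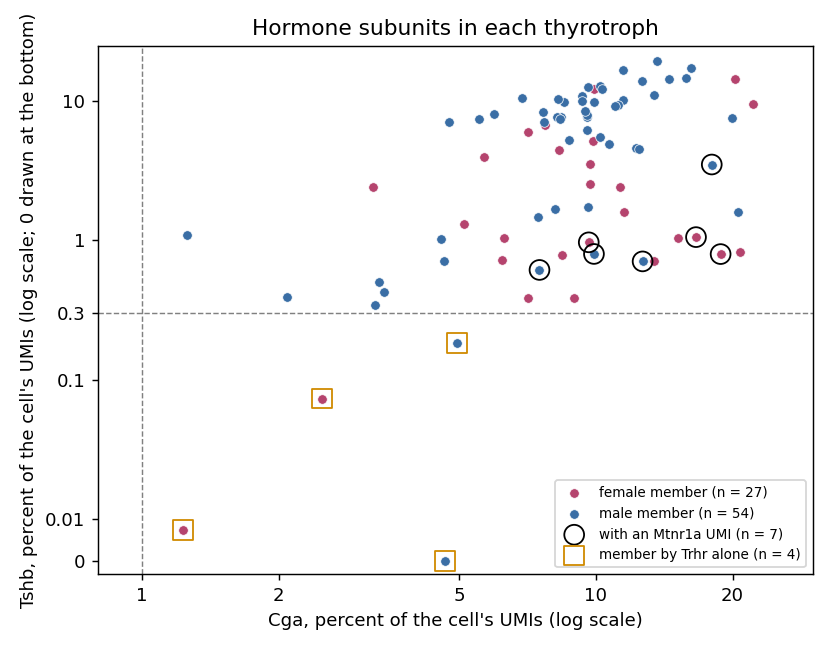
Share of *Cga* (x axis, log scale) and of *Tshb* (y axis, log scale, a value of 0 drawn at the bottom) in the UMIs of each of the 81 thyrotrophs, 27 female and 54 male, with the 7 cells that hold an *Mtnr1a* UMI and the 4 that entered by *Trhr* alone marked. *Cga* shares overlap between the pools, most male cells lie above the female median *Tshb* share of 1.30%, and the cells with *Mtnr1a* have *Tshb* shares from 0.614% to 3.52%.

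The rule had few cells near its hormone limits, apart from those without *Tshb*. *Tshb* alone or with *Trhr* chose 77 cells, 42 had a *Trhr* UMI, 38 met both conditions and 4 entered by *Trhr* alone. The lowest *Tshb* share among the 77 was 0.342%, and 160 cells within all hormone limits had neither *Tshb* at 0.3% nor *Trhr*, the highest of them at 0.271% and their median at 0. These 160 cells were unevenly spread, with 28, 10, 47 and 75 in lanes 1 to 4, and 15 of them had at least 15 thyrotrophs among their 30 neighbours. By *Cga* alone 11 cells fell outside, the highest at 0.989%, and 2 of these had at least 0.3% *Tshb*. Only 1 cell fell outside by *Lhb* alone (5.21%) and 1 by *Gh1* alone (12.3%), and none by *Prl* or *Pomc* alone. Inside, the highest shares were 0.0555% for *Lhb*, 1.40% for *Gh1*, 0.452% for *Prl* and 0.136% for *Pomc*. The 4 cells chosen by *Trhr* alone held 1 *Trhr* UMI each, *Tshb* shares from 0 to 0.183%, and 1, 0, 5 and 19 thyrotroph neighbours. *Trhr* UMIs depend on depth, since the 42 cells with one had a median of 14080.5 UMIs and the 39 without had 6557.

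*Lhb*, *Gh1*, *Prl* and *Pomc* were kept low by the rule, so markers of other cell types were summed without them. The 8 remaining gonadotroph markers summed to 1.18 UMIs per 10000 in thyrotrophs, against 141 in gonadotrophs and 0.250 to 0.701 in the other 5 groups of cells. Over lanes 1 to 4 this sum was 2.17, 4.42, 0.437 and 0.525, so both female lanes were above both male lanes, and *Tgfbr3l* gave 2.50 of the 3.63 of the female pool. The 5 remaining somatotroph markers summed to 0.778 (0.542 to 1.16 over the lanes), against 8.64 in somatotrophs, 1.04 in lactotrophs and 0.251 in gonadotrophs. The 6 remaining lactotroph markers summed to 0.105, against 4.29 in lactotrophs, and the 6 remaining corticotroph and melanotroph markers to 0.158, against 19.4 in corticotroph-gate cells. Folliculostellate markers summed to 0.273, with *Sox2* and *Aldh1a2* at 0. Leukocyte markers summed to 0.526 (1.48 in lane 4 and at most 0.135 in the other lanes), with *Cd53* at 0. In gonadotrophs, somatotrophs, lactotrophs and corticotroph-gate cells the leukocyte sum was 0.218 to 0.303. Lane 4 also held the cell that lay mostly among leukocyte-marker cells, whose part in this sum was not tested. Endothelial and pericyte markers summed to 0.946, above the 0.0587 to 0.453 of the same types, with *Aplnr*, *Col1a1* and *Lum* at 0 in thyrotrophs. Red blood cell markers summed to 0.231, against 0.257 to 0.892 in these types. Genes that respond to tissue dissociation summed to 35.04 in female and 25.2 in male thyrotrophs (18.9 to 38.7 over the lanes), against 49.6 and 81.6 in gonadotrophs, 30.5 and 40.7 in somatotrophs and 35.6 and 74.05 in lactotrophs. Thyrotrophs were thus the lowest of these types in the male pool but above somatotrophs in the female pool. The 10 cell cycle genes summed to 0.673, against 0.877 in gonadotrophs, 1.28 in somatotrophs, 3.27 in lactotrophs and 1.13 in corticotroph-gate cells. Of these genes 6 were at 0 in thyrotrophs, *Mki67* and *Cdk1* among them, a count without the share over all genes beside it.

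To find what marks thyrotrophs besides the genes of the rule, UMIs were summed per cell type and pool and compared with 244 gonadotrophs, 2016 somatotrophs and 526 lactotrophs chosen by the same hormone limits. Levels are UMIs per 10000 of the summed total, which in a 3′ library does not depend on the length of the transcript. With 8 sums and edgeR's quasi-likelihood test with Benjamini-Hochberg adjustment, 1 of 11478 genes outside the rule was higher in thyrotrophs than in all 3 types at an adjusted p under 0.001 (0.00871%), *Irs4*. In the same test 0 were lower, although 216 were lower at an unadjusted p under 0.05 and 3 were called lower by DESeq2. At an adjusted p under 0.05, 42 were higher (0.366%) and 12 lower (0.105%). With the 16 sums per type and lane, 31 of 8924 genes were higher (0.347%) and 4 lower (0.0448%) at 0.001, and 177 (1.98%) and 146 (1.64%) at 0.05. The spread in that fit mixes lane error with how far the differences between types varied from pool to pool, and technical lanes are counted as replicates. The median log2 difference over all genes was between -0.06 and -0.07 against each type. Without a test, 361 of the 11478 genes had all 4 thyrotroph lanes above every lane of the 3 types (3.15%), and 218 had all 4 below (1.9%), which is the background for the counts of lanes below.

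*Irs4*, which encodes an insulin receptor substrate that links receptors to PI3 kinase, was the gene that passed with 8 sums. Its level over the lanes was 6.36, 5.14, 5.18 and 4.33 in thyrotrophs, against at most 0.122 in gonadotrophs, 0.746 to 0.902 in somatotrophs and 0.586 to 1.20 in lactotrophs. The lowest thyrotroph lane was above the highest lane of every other type. The log2 difference was 2.16 with an SE of 0.24 against lactotrophs, the nearest type, and the largest of its 3 adjusted p-values was 0.000849 in edgeR's quasi-likelihood test with Benjamini-Hochberg adjustment. It was found in 69 of the 81 cells (85.2%, and 67.9% after thinning each cell to 3000 UMIs), against 1.17% of leukocyte-marker cells (median depth 6494 UMIs against 10710 in thyrotrophs). The call depended on the lanes and cells kept: its adjusted p in the same test was 0.00127 without lane 1, 0.00342 without lane 3 and 0.00390 without lane 4, while the log2 difference stayed between 1.99 and 2.25. It was also not past the limit after thinning (adjusted p = 0.00299) or with cells at or below 10% mitochondrial UMIs (0.00144), at log2 differences of 2.16 and 1.98.

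Of the genes of thyroid hormone activation and reception, *Dio2* and *Rxrg*, a partner of the thyroid hormone receptors, had all 4 lanes above every lane of the other types. These 2 of the 13 tested passed against all 3 types with 16 sums, where the share over all genes was 0.347%. With 8 sums 0 of 17 passed, at a share of 0.00871% over all genes, so that count says little, and *Dio2* passed against lactotrophs. *Dio2*, the deiodinase that makes triiodothyronine, stood at 2.44, 3.26, 2.81 and 2.69 per 10000 over lanes 1 to 4, while other lanes reached at most 0.194 in gonadotrophs, 0.255 in somatotrophs and 0.0042 in lactotrophs. The thyrotroph lanes differed little among themselves and were all above the rest. Against somatotrophs, the nearest type, the log2 difference was 3.31 (SE 0.53), with adjusted p = 0.00637 by edgeR's quasi-likelihood test with 8 sums and 1.61e-06 with 16. *Dio2* UMIs were found in 70.4% of thyrotrophs, 46.9% after thinning, and in 0 of 599 leukocyte-marker cells, which allows up to 0.501% of cells with a UMI.

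*Rxrg* stood at 0.677, 0.362, 0.506 and 0.657, against 0 in all gonadotroph lanes and at most 0.119 in somatotrophs and 0.0239 in lactotrophs (adjusted p = 0.000354 against somatotrophs with 16 sums, edgeR's quasi-likelihood test). *Thrb*, a thyroid hormone receptor, stood at 0.812, 1.23, 1.29 and 1.38, above every gonadotroph lane (at most 0.24). *Thrb* was also above the range of lactotrophs (0.462 to 0.884) except in its lowest lane, which was within it. Its difference from gonadotrophs was 2.79 on the log2 scale and passed with 16 sums (adjusted p = 1.4e-06 in edgeR's quasi-likelihood test), while those from somatotrophs and lactotrophs did not (0.0635 and 0.0892). *Thra*, the other receptor, was at 0.473 against 0.545 to 0.661 in the 3 types, with overlapping lanes. *Ncor1*, a corepressor of these receptors, had all 4 lanes (0.271 to 0.46) just below every lane of the other types (0.462 at the lowest) without passing the test. The other deiodinase genes *Dio1* and *Dio3*, the transporter genes *Slc16a10* and *Slco1c1*, and *Crym* and *Thrsp* had no UMI in the 81 cells.

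The receptor genes are given gene by gene. Of 26 receptor genes for hypothalamic and other signals 11 had no UMI in thyrotrophs. The share of all genes without a UMI was not taken, so this count describes the list only. Among the 11 were the receptor genes of pituitary adenylate cyclase-activating peptide (*Adcyap1r1*), ghrelin (*Ghsr*), leptin (*Lepr*) and neuromedin U (*Nmur1* and *Nmur2*). *Nmur2*, *Galr1* and *Npy2r*, also of the 11, had none in gonadotrophs, somatotrophs and lactotrophs either. *Trhr*, the TRH receptor and a gene of the rule, was at 0.812, 0.579, 1.24 and 0.919 over the lanes and at 0.134 to 0.176 in lactotrophs, with at most 0.0203 in gonadotrophs. *Sstr2*, a somatostatin receptor, stood at 0.542, 0.29, 0.368 and 0.296, against 0.153 to 0.225 in somatotrophs, at most 0.0434 in gonadotrophs and at most 0.0042 in lactotrophs. All 4 lanes were above those of somatotrophs, but that difference, 0.49 on the log2 scale with an SE of 0.43, did not pass (adjusted p = 0.562 in edgeR's quasi-likelihood test with 8 sums).

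Behind the receptor, 0 of the 20 genes of TRH receptor signalling tested with 8 sums and 0 of the 15 tested with 16 were called higher than in all 3 types, and shares of 0.00871% and 0.347% over all genes leave such counts uninformative. *Rgs4*, which shortens Gq signals, stood at 0.406 to 0.558 over the lanes, between gonadotrophs (2.06 to 5.33) and somatotrophs (at most 0.00367). *Dgkz*, a diacylglycerol kinase, had 3 UMIs in all thyrotrophs, and its lanes (at most 0.046) lay below every other lane (0.0756 at the lowest).

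The transcription factors are given gene by gene, since 0 of 23 tested with 8 sums and 0 of 22 with 16 differed from all 3 types, which is also near the shares over all genes. *Pou1f1*, the factor of the thyrotroph, somatotroph and lactotroph lineage, was at 1.35, 2.03, 2.65 and 2.20, against at most 0.285 in gonadotrophs, 2.79 to 3.22 in somatotrophs and 4.10 to 5.77 in lactotrophs. Every thyrotroph lane was thus above the gonadotrophs and below both other types. The log2 difference was 4.80 from gonadotrophs (SE 0.49, adjusted p = 0.000505) and did not pass against somatotrophs (-0.89, SE 0.38, adjusted p = 0.206) or lactotrophs (-1.58, SE 0.38, adjusted p = 0.0343) in edgeR's quasi-likelihood test with 8 sums and its limit of 0.001.

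*Isl1* and *Foxl2* were close to gonadotrophs and far above the other types. *Isl1*, a LIM homeobox gene, was at 0.271, 1.81, 1.82 and 1.67 in thyrotrophs and 1.09 to 1.65 in gonadotrophs, with at most 0.0374 in somatotrophs and 0.0707 in lactotrophs, so that lanes 2 to 4 were above the highest gonadotroph lane and lane 1 below the lowest. *Foxl2*, a forkhead gene that acts on gonadotropin genes, was at 0.542, 0.507, 0.759 and 0.755, against 0.673 to 1.01 in gonadotrophs and at most 0.00929 in the other 2 types. Both passed as higher than in somatotrophs and lactotrophs (largest adjusted p = 0.000173), and neither differed detectably from gonadotrophs (log2 differences 0.10, SE 0.33, and -0.28, SE 0.35) in edgeR's quasi-likelihood test with 8 sums.

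*Gata2*, the partner of POU1F1 at *Tshb*, was at 2.98, 2.46, 1.24 and 1.12, inside the gonadotroph range of 1.32 to 3.89 except for the male lanes, and above the 0.0825 to 0.30 of somatotrophs. In the female pool it stood at 2.64 against 1.39 in gonadotrophs, and in the male pool at 1.19 against 3.58. The order of thyrotrophs and gonadotrophs thus turned between the pools. *Gata2* passed against lactotrophs with 8 sums (adjusted p = 0.000769) and against somatotrophs with 16 (adjusted p = 9.68e-05), both in edgeR's quasi-likelihood test. *Hes6*, a helix-loop-helix gene, was at 0.406 to 0.525, lower than the 3.90 to 5.15 of gonadotrophs (-3.21, SE 0.27, adjusted p = 0.000195 with 8 sums, edgeR's quasi-likelihood test), and its pooled levels of 0.472 in female and 0.460 in male thyrotrophs were also below those of somatotrophs (0.523 and 0.554) and lactotrophs (0.694 and 0.995). *Nr5a1*, the gonadotroph factor, had 4 UMIs in thyrotrophs, none of them in a male lane, and *Neurod1*, *Pax7* and *Sox2* had none.

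Genes of prohormone processing and the granins gave a mixed picture. They summed to 299.9 UMIs per 10000 in female and 351 in male thyrotrophs, against 222 and 429 in gonadotrophs, 105 and 131 in somatotrophs and 122 and 184 in lactotrophs, so the order of thyrotrophs and gonadotrophs turned between the pools. Of 18 tested, 6 had all 4 lanes above every lane of the other types, against 3.15% of all genes. With 8 sums 0 of the 18 passed against all 3 types, which a share of 0.00871% over all genes leaves uninformative. With 16 sums 1 of 17 passed, *Pcsk2*, where that share was 0.347%. *Chgb*, chromogranin B, was at 68.8, 68.6, 111 and 121, against at most 19.6 in gonadotrophs, 9.14 in somatotrophs and 43.3 in lactotrophs, and passed with 8 sums against somatotrophs alone (3.10, SE 0.32, adjusted p = 0.000558, edgeR's quasi-likelihood test). The convertase genes *Pcsk1* (0.812, 1.74, 2.39 and 2.69) and *Pcsk2* (1.49, 0.651, 2.23 and 2.43) had their lowest lanes in the female pool and exceeded 0.605 and 0.297, the highest lanes of the other types.

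*Pam*, which amidates peptides, was more even, at 8.25 to 10.2 over the lanes against at most 6.6 elsewhere, and *Resp18* at 107 to 130 against at most 96.2. The granins were not all high. *Chga*, chromogranin A, was at 8.66 to 10.6, below the 23.8 to 151 of gonadotrophs, and *Scg2* at 38.1 to 46.1 lay between gonadotrophs (79.3 to 135) and somatotrophs (4.15 to 5.47). Of the genes for the glycans of glycoprotein hormones, 0 of 13 tested were called above all types with 8 sums, which is near the share over all genes. *Man2a1*, a Golgi mannosidase, was shared with gonadotrophs (0.389 against 0.642 per 10000) and higher than in somatotrophs and lactotrophs (4.49 and 4.59 on the log2 scale, largest adjusted p = 0.000662, edgeR's quasi-likelihood test with 8 sums).

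Several genes for peptides and other ligands marked thyrotrophs. Of 24 tested genes for secreted peptides and ligands, 5 had all 4 lanes above every other lane, against 3.15% of all genes. These were *Nmu*, *Bmp15*, *Gdf11*, *Nrg4* and *Nell1*. With 16 sums 3 of 23 passed against all 3 types, *Nmu*, *Bmp15* and *Gdf11*, where the share over all genes was 0.347%. *Nmu*, neuromedin U, was at 15.03, 13.6, 11.0 and 7.81, with at most 1.71 in gonadotrophs, 1.13 in somatotrophs and 0.219 in lactotrophs. Its log2 difference from somatotrophs, the nearest type, was 3.56 (SE 0.74), with adjusted p = 0.0224 by edgeR's quasi-likelihood test with 8 sums and 0.000138 with 16. *Nmu* UMIs were found in 84.0% of thyrotrophs, 67.9% after thinning, against 1.34% of leukocyte-marker cells.

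*Bmp15*, a growth factor of the BMP family, was at 0.812, 0.362, 0.621 and 1.02, against at most 0.186 elsewhere (nearest type lactotrophs, 2.34, adjusted p = 0.000117 with 16 sums, edgeR's quasi-likelihood test). *Gdf11*, of the same superfamily, was at 0.394 to 0.542, against at most 0.111 elsewhere. *Bdnf*, brain-derived neurotrophic factor, was at 0.135, 0.579, 1.10 and 1.15 and overlapped lactotrophs (0.0876 to 0.298) through lane 1. *Grem1*, a BMP antagonist, did so through lane 2 (0.406, 0.145, 0.575 and 0.985, against 0.0126 to 0.279 in lactotrophs). *Dlk1*, a Notch-like membrane protein also released from cells, was at 12.9, 32.1, 24.4 and 20.6, which is above gonadotrophs (at most 0.895) and lactotrophs (at most 4.79) and below somatotrophs (59.5 to 79.8). *Pdyn*, prodynorphin, had no UMI in the 81 cells and 0.434 to 0.57 per 10000 in gonadotrophs.

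**Figure D2:**
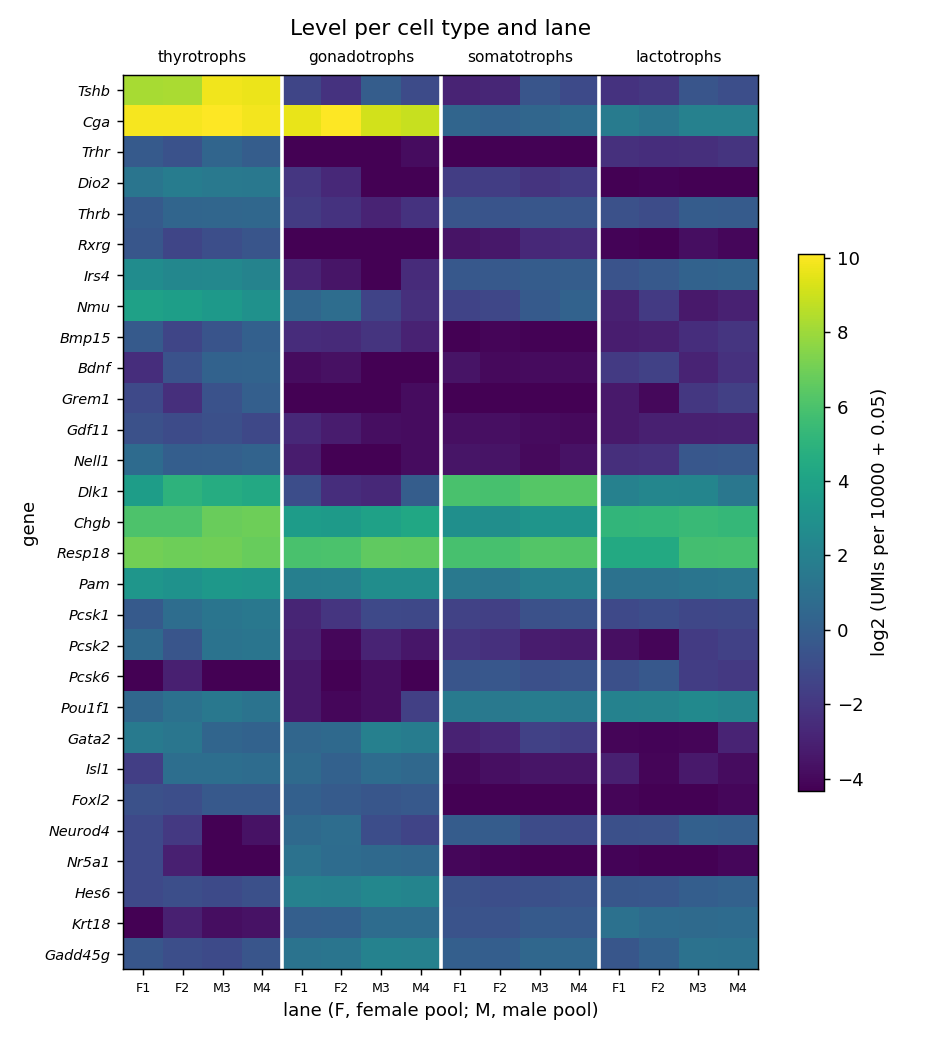
Level of selected genes as log2 of UMIs per 10000 with 0.05 added (colour), by gene (rows of the map) and by lane of each cell type (columns, F for the female and M for the male pool). *Irs4*, *Dio2*, *Nmu* and *Chgb* are higher in all 4 thyrotroph lanes than in any lane of the other 3 types, *Isl1* and *Foxl2* are shared with gonadotrophs, and *Pou1f1* is shared with somatotrophs and lactotrophs.

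Of the 31 genes higher with 16 sums, the 20 with the largest difference from their nearest type included 7 described above (*Nmu*, *Pcsk2*, *Dio2*, *Gdf11*, *Bmp15*, *Rxrg* and *Irs4*). The others were *Calb2*, *Espn*, *Bpifa1*, *Layn*, *Parm1*, *Cml3*, *Rps6ka3*, *Ccnd1*, *Thy1*, *Pgm2l1*, LOC102548740, *Pon3* and *Tmem41a*. *Thy1*, a GPI-anchored surface protein, was the most abundant of these, at 10.8, 8.83, 13.7 and 12.4, against at most 0.0645 in gonadotrophs, 2.00 in somatotrophs and 3.79 in lactotrophs (nearest type 2.104, largest adjusted p = 2.84e-05, edgeR's quasi-likelihood test with 16 sums). All 4 lanes were again above the rest, and its UMIs were in 90.1% of thyrotrophs (82.7% thinned) but also in 82.7% of somatotrophs (42.7% thinned).

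*Parm1*, a membrane mucin, was at 2.44, 1.81, 4.12 and 4.89, against at most 0.658 elsewhere. *Ccnd1*, cyclin D1, was at 1.35, 0.796, 1.15 and 0.854, against at most 0.305. *Pgm2l1*, a glucose 1,6-bisphosphate synthase, was at 1.62 to 2.59, against at most 0.443. *Calb2*, calretinin, rested on 29 UMIs in 13 cells, with none in gonadotrophs and lactotrophs, and *Espn*, an actin-bundling protein, on 103 UMIs in 15 cells. Over the 20 genes the log2 difference from the nearest type was between 1.93 (*Tmem41a*) and 4.05 (*Calb2*), and the adjusted p was at most 0.000997 (*Layn*) in edgeR's quasi-likelihood test. In the study's list of thyrotroph-dominant genes, drawn up from these samples, 1 of the 27 genes outside the rule passed with 8 sums. With 16 sums 12 of 23 passed, and 21 of the 27 had all 4 lanes above the rest. The shares over all genes were 0.00871%, 0.347% and 3.15%, in that order. Being chosen on these cells, the list is no independent evidence.

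Lower than in all 3 types with 16 sums were *Krt18*, *Gadd45g*, *Rps4x* and LOC100362640. *Krt18*, a keratin of simple epithelia, had 3 UMIs in the 81 cells (lanes 0, 0.0724, 0.023 and 0.0328), against 0.592 to 2.07 over the lanes of the other types. Its level was 22.4 times higher in somatotrophs, with a counting interval of 7.66 to 109, 37.8 times in gonadotrophs (12.8 to 184) and 55.1 times in lactotrophs (18.8 to 267). *Gadd45g*, a growth arrest gene, was at 0.414 to 0.677, against 0.682 to 4.24 elsewhere, so that its highest thyrotroph lane was next to the lowest lactotroph lane. *Rps4x* and LOC100362640 fell by 0.95 to 1.40 on the log2 scale. *Rps4x* encodes a ribosomal protein, whose reads can be shared with processed copies, and no role is given here for LOC100362640.

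Against each type singly, 8 sums called 16 genes higher and 7 lower than in gonadotrophs (0.139 and 0.061% of those tested), 31 and 4 against somatotrophs (0.27 and 0.0348%), and 19 and 12 against lactotrophs (0.166 and 0.105%). Of the 8 gonadotroph markers outside the rule 3 were lower than in gonadotrophs, *Fshb*, *Gnrhr* and *Tgfbr3l*. *Gnrhr*, the receptor for gonadotropin-releasing hormone, was at 0.271, 0.362, 0.023 and 0.0328, against 9.14 to 12.8 in gonadotrophs.

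Within the thyrotrophs, 7 cells held UMIs of *Mtnr1a*, a melatonin receptor known for its expression in the pars tuberalis. These cells were set apart after their values had been seen, so what follows is a description without a test. They came from every lane (1, 2, 2 and 2 cells) and held 25 *Mtnr1a* UMIs. *Mtnr1a* UMIs were found in 8.64% of thyrotrophs (95% interval 3.55 to 17.0%) and in 30 of 244 gonadotrophs (12.3%, 8.45 to 17.1%), but in 1 of 2016 somatotrophs, 0 of 526 lactotrophs, 1 of 880 corticotroph-gate cells, 5 of 2540 folliculostellate-marker cells (0.197%) and 0 of 599 leukocyte-marker cells. Markers of the pars tuberalis and posterior lobe (9 genes, *Mtnr1a* included) summed to 0.746 in thyrotrophs, on the scale used above. This sum was 1.13 in somatotrophs, 0.772 in folliculostellate-marker cells, 0.342 in gonadotrophs and at most 0.190 elsewhere. Of the 9 genes, 5 had no UMI in thyrotrophs. In the 7 cells *Tac1*, also listed, had no UMI and *Eya3* had up to 2 in a cell. A pars tuberalis origin of the 7 cells was not tested. All 7 lay among the other thyrotrophs (23 to 26 of 30 neighbours), and none was called a doublet or had a high mitochondrial share. Their median depth was 8138 UMIs, against 11022.5 in the other 74.

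The 7 cells differed from the other 74 in many of the genes given above. *Tshb* stood at 142 UMIs per 10000 against 782, although *Cga* stood at 1343 against 984. *Pou1f1* had 1 UMI in the 7 cells, against UMIs in 55 of the 74. *Dio2* had 2 UMIs (0.274 against 3.02 per 10000), *Irs4* 2 (0.274 against 5.39), *Thy1* 8 (1.10 against 13.3) and *Trhr*, *Pcsk2* and *Foxl2* none (1.09, 2.17 and 0.763 in the 74). Of the genes in this paragraph, *Cga* alone was higher in the 7 cells.

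Other genes stood higher in the 7 cells. *Espn* was at 11.8 against 0.194 and *Vgf*, a neuropeptide precursor, at 9.60 against 0.0683, with 86 of 103 and 70 of 76 of all thyrotroph UMIs. *Nmu* was at 40.1 against 8.24 and *Pitx1*, a homeobox gene of the early pituitary, at 9.33 against 1.96. *Gata2* (1.92 against 1.48), *Isl1* (2.33 against 1.59) and *Scg2* (44.7 against 44.0) were close. Without these 7 cells the log2 difference of *Espn* from its nearest type was 1.07 in place of 3.95 (adjusted p = 0.540 in edgeR's quasi-likelihood test with 8 sums), that of *Nmu* was 3.17 in place of 3.56, and that of *Dio2* was 3.44 in place of 3.31.

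**Figure D3:**
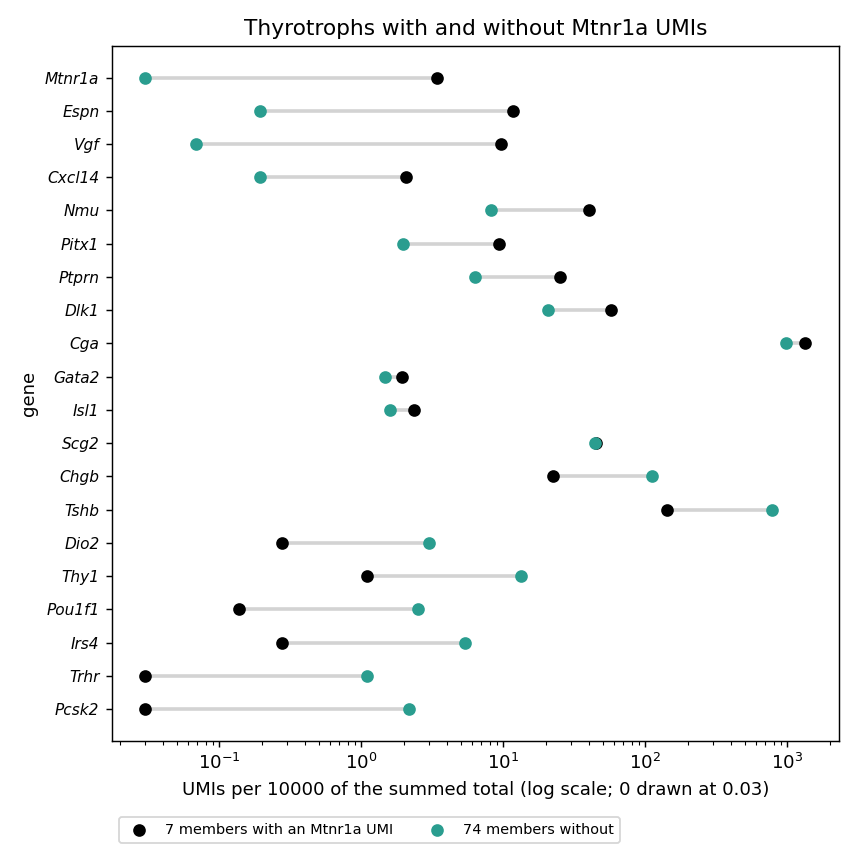
Level of selected genes in UMIs per 10000 (x axis, log scale, 0 drawn at 0.03) in the 7 thyrotrophs with an *Mtnr1a* UMI and in the 74 without, each summed over its cells. *Espn*, *Vgf* and *Nmu* lie to the right in the 7 cells and *Tshb*, *Dio2*, *Irs4* and *Pou1f1* to the left.

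Male and female thyrotrophs were compared over lanes, 2 against 2, within the same cells. The pools differed first in depth and mitochondrial RNA. The median depth of a thyrotroph was 5852.5 and 7148 UMIs in the female lanes and 12997 and 13809 in the male lanes, and the median share of mitochondrial UMIs was 12.96% and 10.7% against 6.27% and 6.23%. More than 10% mitochondrial UMIs were found in 18 of 27 female and 10 of 54 male thyrotrophs. In gonadotrophs the median share was 5.12% in the female and 5.24% in the male pool, so that no such gap was seen there. The part of depth and mitochondrial share in the differences below was examined only by leaving out cells, as given with them, and by thinning. With each cell thinned to 3000 UMIs, 66 genes were higher in male and 46 in female thyrotrophs at an unadjusted p under 0.05 in edgeR's quasi-likelihood test.

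Of 2921 genes tested outside the rule, 4 were higher in male (0.137%) and 5 in female thyrotrophs (0.171%) at an adjusted p under 0.001 in edgeR's quasi-likelihood test with Benjamini-Hochberg adjustment. At an adjusted p under 0.05 these were 38 (1.3%) and 32 (1.1%), and the median log2 difference, male minus female, was -0.02. *Tshb*, given above, and *Prl* chose the cells and are not counted. *Prl* stood at 13.9, 20.05, 3.27 and 2.17 per 10000 over lanes 1 to 4, or 17.9 in female and 2.81 in male thyrotrophs. In other cells that do not make it, *Prl* stood at 14.0 in female and 3.02 in male somatotrophs and at 12.1 and 7.66 in gonadotrophs.

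Higher in the male pool were 4 genes that serve the secretory pathway. *Sec11c*, a subunit of the signal peptidase, was at 8.66 and 6.95 in the female lanes and 26.3 and 26.9 in the male lanes, a log2 difference of 1.79 (SE 0.16, adjusted p = 5.3e-05, edgeR's quasi-likelihood test). *Pdia6*, a protein disulfide isomerase, was at 3.66 and 3.69 against 9.57 and 12.2 (1.55, SE 0.20), and *Manf*, a secreted protein induced by stress of the endoplasmic reticulum, at 3.79 and 3.40 against 9.82 and 10.7 (1.52, SE 0.19). *Ssr4*, of the translocon-associated complex, was at 7.58 and 9.12 against 18.8 and 19.6 (1.17, SE 0.15, adjusted p = 0.000781, edgeR's quasi-likelihood test). For each of the 4, both male lanes were above both female lanes by more than the lanes of a pool differed. They were spread over the cells, with *Sec11c* UMIs in 24 of 27 female and 52 of 54 male thyrotrophs.

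Further genes were past an adjusted p of 0.05 but not of 0.001 in the same test. *Derl3* and *Creld2*, which act on misfolded and newly made proteins in the endoplasmic reticulum, were at 0.135 and 0 against 1.13 and 1.54, and at 0.135 and 0.29 against 1.61 and 4.01. *Derl3* had 1 UMI in female and 96 in male cells, a ratio of levels of 27.5 with a counting interval of 4.83 to 1099. *Oasl2*, an interferon-induced gene, had the same counts, *Tmtc1*, a mannosyltransferase of the endoplasmic reticulum, had 1 and 48 (13.8, 2.36 to 555), and RT1-T24-4, a class I histocompatibility gene, had 3 and 106 (10.1, 3.37 to 49.9). *Eif2s3y*, on the Y chromosome, had no UMI in female and 56 in male cells, at least 5.35 times as high against a floor of 3 UMIs over the female cells.

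Higher in the female pool were *Apoe*, *Vgf*, *Mt-nd2*, *Mt-nd3* and LOC100911498. *Apoe*, apolipoprotein E, was at 2.44 and 8.61 against 0.138 and 0.296 (-4.88, SE 0.50, adjusted p = 0.000118, edgeR's quasi-likelihood test), but 2 of the 27 female cells held 83.9% of its UMIs. *Vgf* was at 4.20 and 2.39 against 0.046 and 0.328, in 5 female and 4 male cells, and 2 cells held 71.9% of its female UMIs, so a few cells set both values. Most *Vgf* UMIs of thyrotrophs lay in the cells with *Mtnr1a*, as given above. The mitochondrial genes *Mt-nd2* (110 and 90.1 against 43.6 and 45.9) and *Mt-nd3* (20.2 and 17.0 against 8.12 and 7.19), subunits of complex I, are themselves counted in the mitochondrial share. Their difference is thus not separate from that of the share. LOC100911498 was at 1.35 and 1.30 against 0 in both male lanes, at least 32.5 times as high against a floor of 3 UMIs over the male cells, and showed the same order in gonadotrophs, with 1.87 in female and 0 in male cells.

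The difference between the pools was itself compared with that of other cell types, in a fit over 16 sums. It differed at an adjusted p under 0.001 for 45 of 10355 genes against gonadotrophs (0.435%), 32 against somatotrophs (0.309%) and 216 against lactotrophs (2.09%), in edgeR's quasi-likelihood test with Benjamini-Hochberg adjustment. *Sec11c*, *Pdia6*, *Manf* and *Ssr4* were among them against each of the 3 types. In lactotrophs the 4 genes stood the other way, for *Ssr4* at 25.3 UMIs per 10000 in female and 10.2 in male cells. For *Oasl2* and RT1-T24-4 no departure from any of the 3 types was detected (smallest adjusted p = 0.247 in edgeR's quasi-likelihood test).

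The calls depended on which cells were kept. Without the 2 doublets and the 5 cells of high mitochondrial share, *Sec11c* was the 1 gene higher in male thyrotrophs (log2 difference 1.96, adjusted p = 0.00022), and 0 were higher in female thyrotrophs, with 198 at an unadjusted p under 0.05, in edgeR's quasi-likelihood test; DESeq2 was not run on these cells. With the cells at or below 10% mitochondrial UMIs, *Sec11c* was again the 1 gene higher in male cells (1.90, adjusted p = 0.00046), 0 were higher in female cells, with 127 at an unadjusted p under 0.05, and *Mt-nd2* was at -0.24 (adjusted p = 0.595), all in edgeR's quasi-likelihood test, without a run of DESeq2. For *Mt-nd2* that cut selects on the gene's own counts, so its value there decides nothing. With all cells but 1 lane fewer, which leaves a pool with 1 lane assumed to vary like the others, the counts higher in male and in female cells were 3 and 5 without lane 1, 11 and 18 without lane 2, 25 and 12 without lane 3, and 15 and 12 without lane 4. *Pdia6* and *Ssr4* were past the limit of 0.001 with all lanes but not without lane 1 (adjusted p = 0.00245 and 0.00146 in the same test), while their log2 differences stayed between 1.41 and 1.74 and between 1.13 and 1.37 whichever lane was left out. Of the thyrotroph lists, 0 of 6 genes of thyroid hormone action, 0 of 2 receptors and 0 of 12 transcription factors tested were called at 0.001, which the shares of 0.137% and 0.171% over all genes leave uninformative. *Gata2*, at 2.98 and 2.46 in the female and 1.24 and 1.12 in the male lanes, and *Chgb*, at 68.8 and 68.6 against 111 and 121, were past 0.05 (adjusted p = 0.0237 and 0.00683, edgeR's quasi-likelihood test). The first was higher in the female and the second in the male lanes. In gonadotrophs *Gata2* stood the other way, at 1.39 in female and 3.58 in male cells.

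**Figure D4:**
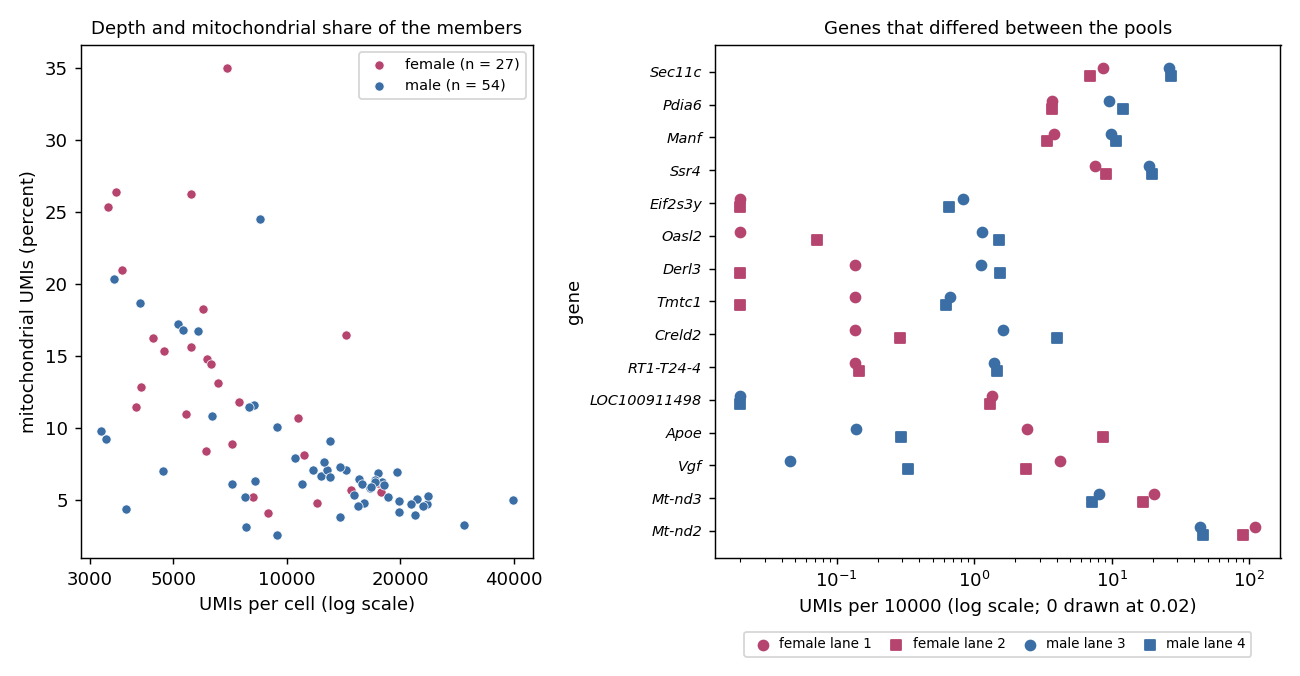
Thyrotrophs of the 2 pools: level of the genes that differed, in UMIs per 10000 (x axis, log scale, 0 drawn at 0.02), as 1 point for each lane, and the mitochondrial share in percent of each cell against its UMIs (log scale). The male lanes lie to the right for *Sec11c*, *Pdia6*, *Manf* and *Ssr4*, and the female cells have fewer UMIs and a higher mitochondrial share.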

How the data were processed

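The deposited table holds UMI counts that the authors made with Cell Ranger 2.1 (named in the submitters' processing notes) against a rat annotation extended at the 3′ ends of genes, with mapped reads equalized between lanes. It lists 30058 genes by symbol in 7861 cells with 18955509 to 24048021 UMIs per lane (median 8853 per cell), without further normalization, and includes cells the study later removed. Lanes were given a sex by their numbers of cells, which the study states; their replicate numbers are not known.

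The members and lists were chosen with earlier results of these data known. Gonadotrophs, somatotrophs and lactotrophs were gated by the same hormone limits. Leukocyte-marker and folliculostellate-marker cells were below every hormone limit and had UMIs of at least 2 of 4 markers. Doublets (Scrublet in scanpy 1.11.5, expected rate 2%, 0.733 to 1.44% of cells called) and cells over 2 SD above their type's mean mitochondrial share were kept, and left out as an alternative. Neighbours used 30 principal components of 2000 variable genes. Summed counts were tested with edgeR 4.0.16 (quasi-likelihood, TMM, filterByExpr at a minimum count of 10), 2-sided, with Benjamini-Hochberg adjustment over all genes tested and a limit of 0.001, the study's own, or 0.05. Types were fitted on 8 sums by type and pool with sex as a term, and as an alternative on 16 by type and lane. The pool contrast used 4 lane sums of thyrotrophs, and another fit on 16 sums tested whether it differed from that of another type. The 7 genes of the rule stayed in the fits and in the adjustment but enter no count of calls. The fits were also run on simulated counts with 1 mean profile for all sums, apart from the genes changed, and 1 common dispersion. The outcome is not reported here. Since lanes share a pool, p-values of the pool contrast, and of its comparison with other types, measure lane error. Those between types from the 8 sums measure how far the differences between types varied from pool to pool, with 1 pool a sex. Those between types from the 16 sums mix that variation with lane error and count technical lanes as replicates. None of these p-values measures the spread between animals.

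Thinning drew 3000 UMIs per cell, and a listed 0 allows up to 3 UMIs over the cells. Intervals are exact (Clopper-Pearson, 95%) and cover counting error only. Genes were named by rule: the genes and markers of the gate, list members, the 20 genes highest against the nearest type and the 8 lowest, and up to 10 per direction between pools, with those under 0.05 where fewer than 5 were called. As 8 sums called *Irs4* alone, the 20 and 8 were taken from 16 sums. Values of some list members are not reported here. Promoters came from RefSeq (GRCr8), another build than the counts. Alternatives were DESeq2 1.42.0, scaling by library size without TMM, all genes with a count, library sizes without the genes of the rule, stricter hormone limits, *Tshb* cells only, thinned cells and each lane left out. Leaving out cells with *Mtnr1a* or over 10% mitochondrial UMIs was added after seeing the data.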

Additional observations from a re-analysis of the deposited data

Results flagged for a closer look

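The difference between male and female thyrotrophs was not the same as that of other cell types for 9 of the 15 genes named between the pools, by edgeR's quasi-likelihood test of the difference between the contrasts, on 16 sums by type and lane (limit adjusted p 0.001). Over 10355 genes outside the rule this test called 45 against gonadotrophs (0.435%), 32 against somatotrophs (0.309%) and 216 against lactotrophs (2.09%). Values are log2 differences, male minus female in thyrotrophs minus the same in the other type.

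*Sec11c*, the signal peptidase gene, was at 7.55 UMIs per 10000 in female and 26.6 in male thyrotrophs, 5.40 and 13.6 in gonadotrophs, 3.08 and 2.75 in somatotrophs, and 7.77 and 3.53 in lactotrophs, so that its difference exceeded that of these types by 0.93, 2.24 and 3.71. *Pdia6* gave 1.16, 1.48 and 3.35 in the same order, *Manf* 1.37, 2.04 and 3.18, and *Ssr4* 1.53, 1.72 and 3.21. The levels of these 4 genes of the secretory pathway stood higher in male than in female thyrotrophs and lower in male than in female lactotrophs.

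*Creld2* gave 4.08 against somatotrophs and 4.92 against lactotrophs, *Derl3* 7.57 and *Tmtc1* 6.34 against lactotrophs; the last 2 rest on 1 UMI in female thyrotrophs, so their fitted size is uncertain. *Vgf* gave -5.00 against somatotrophs and -5.74 against lactotrophs, but 2.38 against gonadotrophs (adjusted p = 0.4995 in edgeR's quasi-likelihood test), which also had more in the female pool (0.789 against 0.0105 per 10000). Its female thyrotroph UMIs lie in 5 cells, and most of its thyrotroph UMIs lie in the cells with *Mtnr1a*. *Mt-nd2*, itself counted in the mitochondrial share, gave -0.82 against somatotrophs, in cells whose share differed between the pools. The part of depth, mitochondrial share and age in these differences was not tested, and sex, pool and age cannot be told apart.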

How the results depend on the processing

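No paired analysis was possible because the replicate numbers of the labels cannot be matched to the lanes, and lanes of the female and the male pool are no pairs. The share of thyrotrophs kept within its interval with *Tshb* cells only, stricter hormone limits, or without doublets and cells of high mitochondrial share. Genes higher in thyrotrophs than in all 3 types numbered 1, against 12 with DESeq2, 5 with library size in place of TMM, 38 without the filter, 31 with lanes as libraries, 0 after thinning, 0 with cells at or below 10% mitochondrial UMIs, 42 at an adjusted p under 0.05, and 0 to 1 with 1 lane left out (0 without lane 3 or lane 4). Where edgeR called 0, 129 genes were higher at an unadjusted p under 0.05 after thinning, 177 at or below 10% mitochondrial UMIs, 219 without lane 3 and 246 without lane 4; DESeq2 was not run there. *Irs4* was among the genes called by DESeq2, by library size, without the filter and by lanes, but not without lane 1, where another gene was called. Genes lower than in all 3 numbered 0, against 3 with DESeq2, 1 with library size, 15 without the filter, 4 with lanes as libraries, 12 at 0.05, and 0 to 1 with 1 lane left out. Between the pools, genes higher in male thyrotrophs numbered 4, against 39 without the filter, 1 without doublets and high mitochondrial share, 7 with *Tshb* cells only, 7 without the *Mtnr1a* cells, 1 at or below 10% mitochondrial UMIs, 38 at 0.05, and 3 to 25 with 1 lane left out. Those higher in female thyrotrophs numbered 5, against 15 with DESeq2, 21 without the filter, 0 without doublets and high mitochondrial share, 15 with *Tshb* cells only, 14 after thinning, 14 without the *Mtnr1a* cells, 0 at or below 10% mitochondrial UMIs, 32 at 0.05, and 5 to 18 with 1 lane left out. Fewer genes and cells enter some of these fits, and the cause of the other changes was not tested. The pool difference differed from that of gonadotrophs for 45 genes (92 with DESeq2, 159 without the filter, 25 to 68 with 1 lane left out), from somatotrophs for 32 (67, 95 and 20 to 40) and from lactotrophs for 216 (358 without the filter, 146 to 174 with 1 lane left out). For the 24 genes named between types, 357 values under alternatives kept their direction, with 292 on the same side of the limit, 60 past it only under the alternative and 5, all of *Irs4*, no longer past it. For the 15 genes named between pools, 180 values kept their direction, with 143 on the same side, 12 newly past it and 25 no longer past it. Depth limits what 27 female thyrotrophs with a median of 6270 UMIs can show: genes with a few UMIs in them carry wide counting intervals. The 2 cell sets added last were chosen after seeing the data.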
